A study of Mus musculus with 24 samples.

Results

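The lower small intestine (LSI) of 24-month-old mice was compared with that of 12-month-old mice in the 2 LSI libraries labelled 24 months (A and B) and the 3 LSI libraries labelled 12 months (A, B and C), which are 5 of the 24 RNA-seq libraries of the series. The members were chosen by the section and age in their titles. The series covers the upper small intestine (USI), the LSI and the colon (COL) at 4, 12 and 24 months. All mice carried the Lgr5-EGFP-IRES-CreERT2 allele, in which the promoter of the stem cell gene Lgr5 drives a green fluorescent protein and a tamoxifen-inducible Cre recombinase, and the label for treatment is none. The RNA came from pooled, unsorted epithelial cells, so stem cells and their descendants were measured together. The number of mice behind each RNA library is not given in the sources used here. By label the groups differed in age alone. Unless another fit is named, the p-values measure the spread between libraries within the 9 groups of section and age, over all 24 libraries. This spread may be technical.

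The intestinal epithelium is replaced continuously by stem cells at the base of the crypts, whose daughters divide and then mature into absorptive enterocytes, goblet cells and other types as they move up the villus. Paneth cells stay in the crypt and secrete antimicrobial peptides. Epithelial cells also run a circadian clock, in which BMAL1 (the product of Arntl) and CLOCK or NPAS2 bind E-boxes and switch on the Per, Cry and Nr1d genes, whose products then repress the activators or their genes. Genes of the negative limb and of the activators consequently peak at opposite times of day, and the hour at which tissue was collected is not given in the sources used here.

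The 5 libraries held 35068728 to 36574501 counts, 35068728 to 36177341 at 12 months and 36408275 to 36574501 at 24 months. The share of mitochondrially encoded reads was 11.5% to 14.2% at 12 months and 13.3% to 14.1% at 24 months, so both measures were similar in the groups. Within each group no library repeated another, since the chi-square divided by its degrees of freedom was 25.8 to 53.3 for every pair. The epithelial markers (14 of 14 measured, among them keratins and cadherins) had a median log2 fold change of 0.00 and a summed level of 18051 to 20169 CPM (counts scaled by library size to a common total) at 12 months and of 18046 and 20842 CPM at 24 months. The Y-linked genes stood apart, with 3440 counts in 24-month library B and 0 in 24-month library A, against 22, 0 and 6 at 12 months. The main results are therefore also given with a term for Y-linked counts, or without a 24-month library.

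At an adjusted p under 0.05 (quasi-likelihood test of edgeR, Benjamini-Hochberg over all genes), 4 of 17491 genes differed between 24 and 12 months (0.0229% of genes tested), 2 higher and 2 lower at 24 months. They were the ribosomal protein gene copy Rps4y2, the endoplasmic reticulum (ER) stress gene Herpud1, the phosphatase inhibitor gene Ppp1r14d, and 2310016M24Rik, which RefSeq lists as Cox14, a factor in the assembly of cytochrome c oxidase. Values are edgeR's CPM with TMM normalization, which corrects for library composition, and log2 fold changes are given for 24 minus 12 months.

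Rps4y2 (ENSMUSG00000063171, mm9 chr6:148303178-148304120, plus strand), annotated by RefSeq as the transcribed pseudogene Rps4l, was measured at 8.31, 5.86 and 8.51 CPM at 12 months (7.56 ± 1.48, SD, n = 3) and at 1.05 and 1.86 CPM at 24 months (1.45 ± 0.57, SD, n = 2). It fell by 2.38 on the log2 scale (SE 0.23, adjusted p = 0.00013). The groups did not overlap, and the 4-month LSI libraries were higher still, at 25.8, 25.3 and 22.3 CPM. Reads of near-identical copies can be shared between genes, so its counts are uncertain. The X-linked copy Rps4x, which encodes the ribosomal protein itself and was chosen here after its values were seen, was at 340, 303 and 303 CPM at 12 months and at 351 and 397 CPM at 24 months (log2 fold change 0.25, adjusted p = 0.498).

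Herpud1 (ENSMUSG00000031770, chr8:96910338-96919277, plus strand) encodes an ER membrane protein of the degradation pathway for misfolded proteins and is switched on by the unfolded protein response. It was at 214, 261 and 233 CPM at 12 months (236 ± 23.8, SD, n = 3) and at 127 and 91.7 CPM at 24 months (109 ± 25.0, SD, n = 2). It fell by 1.11 on the log2 scale (SE 0.16, adjusted p = 0.0139). The 12-month libraries were the high ones of the section, since the 4-month libraries were at 129, 117 and 138 CPM.

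Ppp1r14d (ENSMUSG00000027317, chr2:119043855-119055642, minus strand), which encodes an inhibitor of protein phosphatase 1, was at 81.9, 85.4 and 99.5 CPM at 12 months (88.9 ± 9.30, SD, n = 3) and at 140 and 169 CPM at 24 months (154 ± 20.4, SD, n = 2), a rise of 0.80 on the log2 scale (SE 0.12, adjusted p = 0.0267). Both 24-month libraries lay above all the 12-month libraries and above the 4-month libraries, which were at 114, 89.4 and 88.9 CPM. 2310016M24Rik (ENSMUSG00000023020, chr15:99556049-99558567, plus strand) was at 25.7, 26.7 and 28.5 CPM at 12 months (27.0 ± 1.38, SD, n = 3) and at 37.1 and 40.1 CPM at 24 months (38.6 ± 2.11, SD, n = 2), a rise of 0.52 (SE 0.09, adjusted p = 0.041). Its 4-month levels of 30.0, 30.5 and 28.2 CPM also lay below both 24-month libraries.

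**Figure D1:**
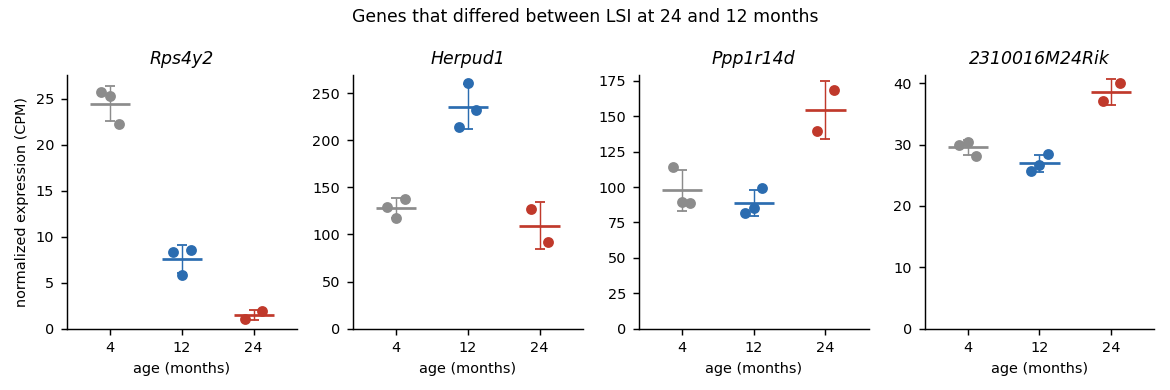
Normalized expression (CPM, linear axes from 0) of the 4 genes that differed between LSI at 24 and 12 months, by age in months. Points are libraries, horizontal bars are means and vertical bars are SDs (n = 3 at 4 and 12 months, n = 2 at 24 months). Rps4y2 stood near 24 CPM at 4 months and below 2 CPM at 24 months, Herpud1 was highest at 12 months, and the other two were highest at 24 months.

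These calls rested on few libraries. Without 24-month library B only Rps4y2 passed the threshold, and without library A 181 genes did, all 4 among them. Without 12-month library A Rps4y2 and Herpud1 passed, without 12-month library B only Rps4y2, and without 12-month library C all but 2310016M24Rik. With the LSI libraries fitted alone none of the 4 did (adjusted p = 0.136 for Rps4y2 and 0.372 for Herpud1). With a term for Y-linked counts, Rps4y2 and Herpud1 still passed, and Ppp1r14d (adjusted p = 0.0938) and 2310016M24Rik (adjusted p = 0.128) did not.

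With the 5 libraries fitted alone, 76 of 15657 genes passed, 11 higher (0.0703%) and 65 lower (0.415%), and 3 of the 4 genes were among them. Here the biological coefficient of variation was 14.8%, against 22.1% over all 24 libraries. At the looser adjusted p under 0.1, 8 genes were higher and 8 lower at 24 months. Some of the 12 added genes are given here, chosen after their values were seen. Higher were Lias, the lipoic acid synthase, at 32.9, 32.5 and 31.7 CPM at 12 months and at 42.3 and 45.8 CPM at 24 months (adjusted p = 0.093), Coq4 of coenzyme Q synthesis (log2 fold change 0.54, adjusted p = 0.0972), and Ndufa8 of complex I (0.41, adjusted p = 0.0972). Also among the 16 were the stress-induced kinase gene Plk3, at 66.0, 63.5 and 63.7 CPM at 12 months and at 26.8 and 27.9 CPM at 24 months (-1.24, adjusted p = 0.0972), the kinase gene Lrrk2 (-2.30), the cyclin gene Ccnl1 (-0.81) and the HSP70 family gene Hspa13 (-0.58), each at the same adjusted p.

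Apart from the Y-linked genes, the clock genes of the negative limb had the median furthest from 0 among the lists described. Short stretches of promoters that match motifs of clock factors are shown first. The 250 bases before each RefSeq gene start (build GRCm38.p6) were searched on both strands for the E-box CACGTG, which BMAL1 and CLOCK bind, and for the D-box TTATGTAA or TTACGTAA, which Dbp, Tef and Hlf products activate and NFIL3 represses. Capitals mark the motif, and each sequence runs 5′ to 3′ on the strand of the gene.
Ciart (chr3:95882247-95882364, minus strand): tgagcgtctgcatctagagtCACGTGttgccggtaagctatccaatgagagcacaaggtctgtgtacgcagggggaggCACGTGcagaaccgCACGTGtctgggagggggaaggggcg
Per1 (chr11:69098763-69098808, plus strand): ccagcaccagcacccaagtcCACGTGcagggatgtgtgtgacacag
Tef (chr15:81802526-81802571, plus strand): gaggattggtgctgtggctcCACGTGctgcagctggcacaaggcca
Bhlhe41 (chr6:145865548-145865593, minus strand): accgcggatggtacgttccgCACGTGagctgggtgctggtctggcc
Cry1 (chr10:85185089-85185134, minus strand): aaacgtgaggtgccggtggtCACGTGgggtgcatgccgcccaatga
Per3, D-box (chr4:151044796-151044890, minus strand): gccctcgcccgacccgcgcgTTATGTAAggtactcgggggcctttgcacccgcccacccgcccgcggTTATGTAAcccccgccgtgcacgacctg

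The E-box was present in 4 of the 10 negative-limb genes with a promoter entry (Ciart, Per1, Tef and Bhlhe41) and in 1 of 6 genes of the list of activators, which also holds the late-peaking repressor gene Cry1, the gene with the match, against 6.86% of all 27025 genes with an entry. In Ciart it occurred 3 times, from 116, 58 and 44 bases before the gene start. The E-box was also present in 4 of 19 immediate early genes with an entry (21.1%), a list described below. The D-box was found in Per3 alone, against 1.10% of all genes. A match is a description of the letters in these windows, and binding was not tested. Per2 and Bhlhe40 had no entry.

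All 12 measured genes of the negative limb and its PAR bZIP outputs were lower in both 24-month libraries than in every 12-month library. The background for such separation was 19.0% of genes lower and 17.8% higher. The difference in clock state was known when this comparison was chosen. At an unadjusted p under 0.05, 11 of the 12 were lower (background 6.88% lower and 6.72% higher), but none passed at an adjusted p under 0.05, and the list's median log2 fold change was -2.30 beside -0.02 over all genes.

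Dbp, a transcription factor gene with one of the widest daily swings known, was at 27.4, 47.6 and 23.3 CPM at 12 months and at 1.41 and 1.02 CPM at 24 months (log2 fold change -4.75, SE 1.89, adjusted p = 0.287). The 4-month libraries were divided, with A and B at 2.51 and 0.64 CPM, near the 24-month level, and C at 51.9 CPM, above every 12-month library. The related PAR bZIP gene Tef had 78.9, 118 and 71.4 CPM at 12 months and 15.0 and 14.8 CPM at 24 months (-2.58, adjusted p = 0.306). Hlf, the remaining member of that family, was at 7.62, 12.0 and 3.71 CPM at 12 months and at 1.49 and 0.38 CPM at 24 months (-3.05, adjusted p = 0.311). For Tef and Hlf 4-month library C lay within the range of the 12-month libraries.

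Among the repressors, Per1 was at 54.5, 74.6 and 54.7 CPM at 12 months and at 19.1 and 12.0 CPM at 24 months (-1.98, adjusted p = 0.118), which was the smallest adjusted p of the list. Per2 had a log2 fold change of -1.62 and Per3 of -2.89. Ciart (named Gm129 in the annotation), a repressor of BMAL1 and CLOCK, was at 6.10, 8.54 and 5.97 CPM at 12 months and at 0.80 and 0.84 CPM at 24 months (-3.06, adjusted p = 0.26). The groups did not overlap for any of them.

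The nuclear receptor gene Nr1d1 (REV-ERBα), which represses Arntl and Nfil3, was at 212, 248 and 195 CPM at 12 months and at 53.2 and 70.3 CPM at 24 months (-1.82, adjusted p = 0.267), and Nr1d2 differed by -2.02. The E-box repressor gene Bhlhe41 was barely detected, at 0.81, 0.69 and 0.51 CPM at 12 months and at 0.06 CPM in both 24-month libraries (-3.48, adjusted p = 0.133). The smallest differences were those of Bhlhe40 (-0.61) and Cry2 (-0.82).

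The activators Arntl and Npas2 lay in the opposite direction. Arntl was at 27.1, 19.7 and 27.6 CPM at 12 months and at 63.1 and 70.7 CPM at 24 months (log2 fold change 1.43, SE 0.45, adjusted p = 0.209), and 4-month libraries A and B (56.1 and 66.2 CPM) and C (18.3 CPM) again fell on different sides. Npas2, the partner of BMAL1 that can replace CLOCK, was at 28.1, 30.8 and 26.1 CPM at 12 months and at 57.1 and 60.6 CPM at 24 months (1.06, adjusted p = 0.144). Nfil3, the repressor at D-boxes, was at 10.8, 9.82 and 14.0 CPM and at 27.7 and 29.3 CPM (1.30, adjusted p = 0.28). Cry1 was also above without overlap (0.35), Clock was below (-0.32), and Rora overlapped. Of 7 members 4 were higher and 1 lower without overlap (17.8% and 19.0% of all genes).

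With the 5 libraries fitted alone, in which the differing 4-month libraries do not enter the estimate of spread, 8 negative-limb genes (Dbp, Tef, Nr1d1, Nr1d2, Per1, Per2, Per3 and Ciart) and 3 of the other list (Arntl, Npas2 and Nfil3) passed at an adjusted p under 0.05. With the term for Y-linked counts, 7 of the 12 negative-limb genes had an unadjusted p under 0.05 (5.84% of all genes were lower at that level in this fit), without 24-month library A 7 (8.80%) and without library B 6 (2.56%). Clock state separated the groups fully. This was known from Dbp and Arntl when the comparison was chosen, so these counts describe the difference in clock state and do not test it. The part of clock state in the differences of other genes was not tested.

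**Figure D2:**
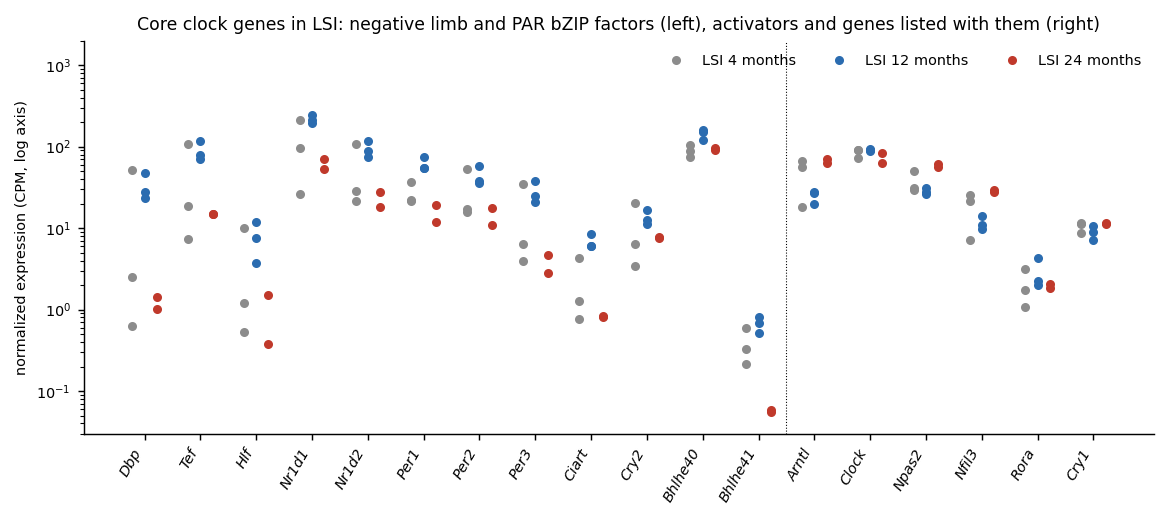
Normalized expression (CPM, log axis) of 18 core clock genes in the 8 LSI libraries, with each point a library and colours for age. Left of the dotted line, the 24-month points lie below all the 12-month points for all 12 genes. The 4-month points are spread, most widely for Dbp (0.64 to 51.9 CPM).

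Immediate early genes, which are transcribed within minutes of a stimulus such as growth factors or tissue handling, were lower at 24 months. Of 24 measured, 18 were below all 12-month libraries without overlap and 1 above, where 19.0% and 17.8% of all genes were. At an unadjusted p under 0.05 were 12, all lower (6.88% of all genes). The median log2 fold change was -0.68, and none passed at an adjusted p under 0.05. The summed level of the list was 7472, 7413 and 6563 CPM at 12 months, 4310 and 4316 CPM at 24 months, and 4770, 3763 and 3745 CPM at 4 months. The 12-month libraries were thus the high ones of the section. The relation of this list to clock state was not tested.

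The stress-responsive repressor Atf3 was at 212, 177 and 157 CPM at 12 months and at 46.6 and 45.5 CPM at 24 months (-1.98, adjusted p = 0.144). The orphan nuclear receptor gene Nr4a1 was at 47.0, 29.4 and 21.4 CPM and at 6.33 and 6.85 CPM (-2.31, adjusted p = 0.129). The zinc finger factor genes Egr2 (-1.81, adjusted p = 0.118) and Klf6 (-0.71, adjusted p = 0.144) differed the same way. With the 5 libraries fitted alone, 8 members passed at an adjusted p under 0.05, all lower, these 4 among them. Without library A 8 members had an unadjusted p under 0.05 (8.80% of all genes were lower at that level), and without library B 7 (2.56%).

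In the unfolded protein response, by which cells expand folding and degradation capacity in the ER, Herpud1 fell and the other 16 measured members did not pass. Without overlap 7 members were lower and 3 higher, and the median was 0.00. Of all genes 19.0% were lower and 17.8% higher, so the share of members that were higher was near that of all genes. By sign, 9 members were positive and 8 negative. At an unadjusted p under 0.05 were 5 lower and 1 higher (6.88% and 6.72% of all genes). With the 5 libraries fitted alone, 3 members passed at an adjusted p under 0.05, all lower (0.415% of all genes). The members named here are those with the smallest p. Next to Herpud1 stood Dnajb9, an ER cochaperone gene, at 64.8, 79.0 and 69.7 CPM at 12 months and at 44.3 and 29.4 CPM at 24 months (-0.95, adjusted p = 0.12). The apoptosis-linked genes Chac1 and Ddit3, targets of the ATF4 branch, had log2 fold changes of -1.64 (adjusted p = 0.2) and -0.74 (adjusted p = 0.257).

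**Figure D3:**
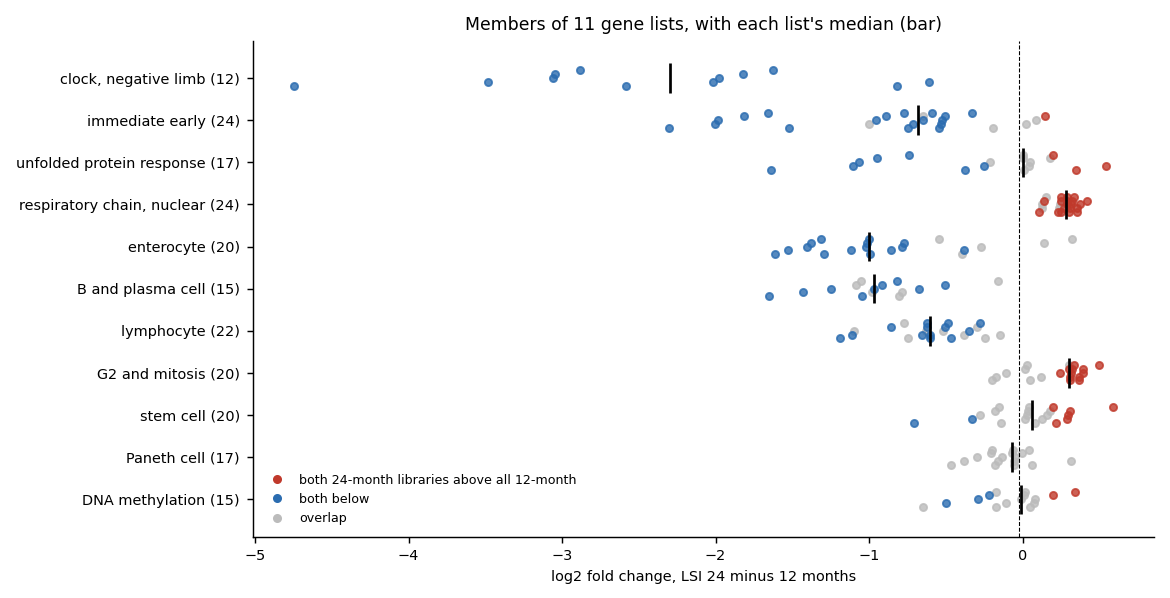
Log2 fold change (24 minus 12 months) of the measured members of 11 gene lists, 1 point per gene, with the number measured in parentheses and the list's median as a black bar. The dashed line is the median of all genes (-0.02). The clock list lies to the left (median -2.30), immediate early and enterocyte genes also lie to the left (-0.68 and -0.999), and the 24 respiratory chain genes lie in a narrow band to the right (median 0.28).

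Nuclear genes of the respiratory chain and ATP synthase, which make ATP in mitochondria, were slightly higher at 24 months. All 24 measured members had a positive log2 fold change, of 0.11 to 0.42 (median 0.28), and 19 had an unadjusted p under 0.05, against 6.72% of all genes in that direction. Again 19 were above all 12-month libraries without overlap (17.8% of all genes), and none passed at an adjusted p under 0.05. Cox5a, a subunit of cytochrome c oxidase, was at 137, 159 and 163 CPM at 12 months and at 185 and 223 CPM at 24 months (0.42, SE 0.11, adjusted p = 0.17). The complex I genes Ndufa9 (0.36, adjusted p = 0.184) and Ndufv1 (0.33, adjusted p = 0.197) came next among those named.

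The size of this difference depended on 24-month library B. The summed level of the list was 7446, 8335 and 8406 CPM at 12 months, 8882 CPM in 24-month library A and 10588 CPM in library B, and without B the median was 0.14 and no member had an unadjusted p under 0.05, in a fit where 1.45% of all genes were higher at that level. The term for Y-linked counts left 16 members at that level (4.37% of all genes). The 13 genes encoded by the mitochondrial genome had a median of -0.02, none with an unadjusted p under 0.05.

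Markers of absorptive enterocytes were lower at 24 months in 15 of 20 genes without overlap (19.0% of all genes), with a median of -0.999. No member had an unadjusted p under 0.05 in the fit of 24 libraries. Fewer cells of a type and less RNA per cell cannot be told apart in such libraries. The peptide transporter gene Slc15a1 was at 388, 822 and 535 CPM at 12 months and at 174 and 208 CPM at 24 months (-1.61, SE 1.19, adjusted p = 0.571). The peptidase genes Ace (-1.41) and Dpp4 (-0.86) and the fructose transporter gene Slc2a5 (-1.30) had adjusted p-values of 0.538 to 0.591. In the 5 libraries alone 15 members were lower at an unadjusted p under 0.05 (10.02% of all genes), none of them past the adjusted threshold. With the term for Y-linked counts the median was -0.23. It was -0.98 without 24-month library A and -0.91 without library B.

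The summed enterocyte level was 19422, 33623 and 23882 CPM at 12 months and 13742 and 15148 CPM at 24 months, which did not overlap. At 4 months it ranged from 4829 CPM (library B) through 16258 CPM (A) to 41156 CPM (C), and its relation to clock state was not tested. The bile acid transporter gene Slc10a2, characteristic of the ileum, was at 47.2, 49.3 and 42.0 CPM at 12 months and at 25.6 and 15.6 CPM at 24 months (-1.16, adjusted p = 0.325). The bile acid list had 6 of 12 members lower without overlap (19.0% of all genes) and none higher. Its median was -0.21, -0.088 with the term for Y-linked counts, -0.26 without library A and -0.34 without library B.

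Lymphocyte and B cell genes, which report immune cells within or attached to the epithelium, were lower as well. Of 22 lymphocyte genes 13 were lower without overlap and none higher (median -0.60), and of 15 B and plasma cell genes 9 were lower and none higher (median -0.97), where 19.0% of all genes were lower. At an unadjusted p under 0.05 were 6 of these 15 and 1 of the 22 lymphocyte genes, all lower, where 6.88% of all genes were. The lymphocyte share at that level was thus below that of all genes. None passed the adjusted threshold. The lymphocyte median was -0.18 with the term for Y-linked counts, with 9 of 22 members positive, -0.31 without library A and -0.72 without library B. The B and plasma cell median was -1.08, -0.83 and -1.16 under these settings. Ptprc, the pan-leukocyte marker CD45, was at 50.2, 38.2 and 33.4 CPM at 12 months and at 19.6 and 18.0 CPM at 24 months (-1.11, adjusted p = 0.4). The B cell gene Ms4a1 was at 8.31, 9.60 and 4.23 CPM and at 3.15 and 3.05 CPM (-1.25, adjusted p = 0.254). The summed levels were 391 to 512 CPM at 12 months and 322 and 358 CPM at 24 months for lymphocyte genes, and 239 to 327 CPM and 184 and 230 CPM for B and plasma cell genes. No member of either list had an unadjusted p under 0.05 without library A.

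Genes of G2 and mitosis lay slightly higher, with 12 of 20 above all 12-month libraries without overlap and none below (median 0.31). The survivin gene Birc5 was at 61.6, 51.2 and 63.9 CPM at 12 months and at 79.2 and 86.8 CPM at 24 months (0.50, adjusted p = 0.312). It was the only member with an unadjusted p under 0.05, and Plk1 and Aurka, kinases of the spindle, both differed by 0.39. Of 21 DNA replication genes 13 were higher without overlap and none lower (median 0.18), where 17.8% of all genes were higher. With the term for Y-linked counts the medians were 0.17 for G2 and mitosis and 0.042 for DNA replication, and no member of either list had an unadjusted p under 0.05. Their part, and that of the enterocyte genes, in the other differences was not tested.

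**Figure D4:**
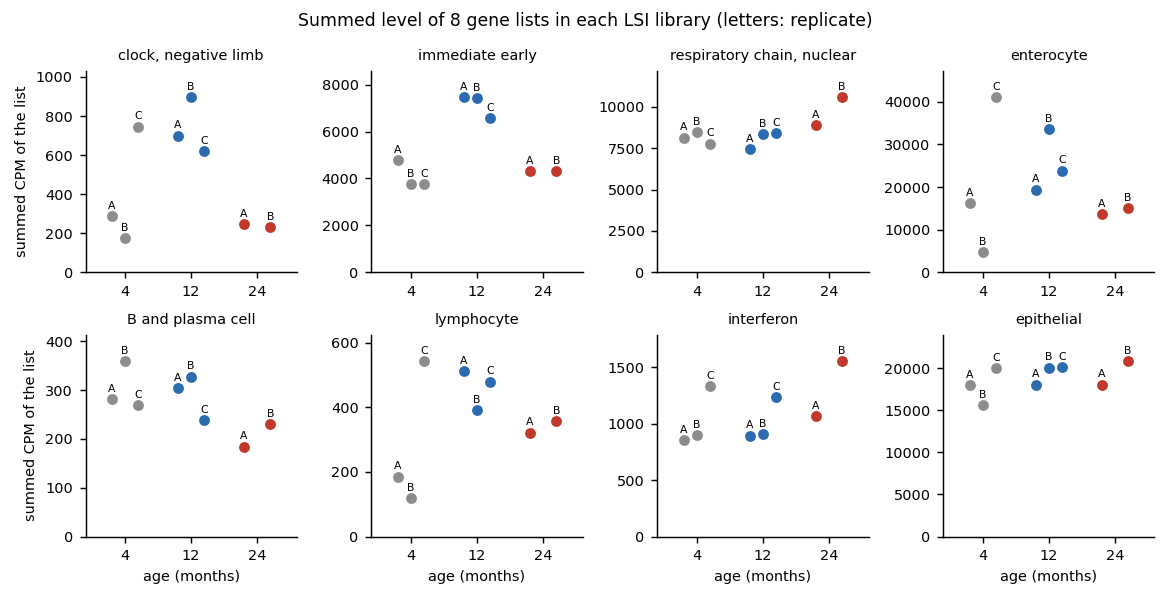
Summed level (CPM, linear axes from 0) of 8 gene lists in each of the 8 LSI libraries, by age in months, with the replicate letter above each point. Both 24-month libraries lie below all 12-month libraries for the clock, immediate early, enterocyte, B and plasma cell and lymphocyte lists and above them for the respiratory chain. Interferon genes were highest in 24-month library B (1553 CPM) and epithelial genes overlapped.

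No stem cell or Paneth cell marker passed at an adjusted p under 0.05. Of 20 stem cell genes 6 were higher and 2 lower without overlap (17.8% and 19.0% of all genes). Their median of 0.06 was -0.016 without 24-month library A and 0.20 without library B. Lgr5 itself was at 49.0, 30.1 and 29.2 CPM at 12 months and at 34.6 and 24.9 CPM at 24 months, so the groups overlapped (-0.28, SE 0.33, adjusted p = 0.746). The stem cell list was led by Cdk6, a kinase of G1 (-0.71, adjusted p = 0.235), and Prom1 (0.59, adjusted p = 0.377). All 17 measured Paneth cell genes overlapped between the groups, with a median of -0.07, and near-identical defensin genes can share reads. The 24-month libraries differed here, since the Paneth median was -0.40 without library A, with 7 of 17 members lower without overlap (34.3% of all genes in that fit), and 0.14 without library B.

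The study addressed changes of DNA methylation with age, and the enzymes that write and remove this mark are given for that reason. None of the 15 measured genes of the list passed at an adjusted p under 0.05. The maintenance methyltransferase gene Dnmt1 was at 139, 116 and 134 CPM at 12 months and at 141 and 132 CPM at 24 months (0.08, SE 0.21, adjusted p = 0.907). Its cofactor Uhrf1 (0.05) and the de novo enzyme gene Dnmt3b (0.01) lay as close to no difference, and the sign of all 3 changed under other settings. The other de novo enzyme gene, Dnmt3a, was at 54.9, 60.2 and 48.8 CPM at 12 months and at 48.4 and 41.0 CPM at 24 months (-0.29, adjusted p = 0.254), without overlap.

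The demethylating oxygenase gene Tet2 was at 27.4, 31.7 and 24.1 CPM at 12 months and at 21.9 and 17.4 CPM at 24 months (-0.50, SE 0.19, adjusted p = 0.278). Tet3 was also lower without overlap (-0.22, adjusted p = 0.375), and Tet1 overlapped (-0.65, adjusted p = 0.49). Of the 15 genes, 3 were lower and 2 higher without overlap, shares near those of all genes (19.0% and 17.8%).

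The same contrast was made in the USI and the COL, and the difference of the change was tested gene by gene. No gene differed in its 24 against 12 month change between LSI and USI (0 of 17491 genes, 0%), with 431 genes (2.46%) at an unadjusted p under 0.05 and 0 genes called by edgeR's likelihood ratio test or by DESeq2. Between LSI and COL the quasi-likelihood test also called 0 genes, with 1052 genes (6.01%) at an unadjusted p under 0.05, whereas the likelihood ratio test called 9 and DESeq2 called 7. The sections may come from the same mice, which the labels do not state, so their values are set side by side.

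Rps4y2 differed by -2.46 in the USI. In the COL it had 22, 18 and 20 counts at 12 months and 0 counts in both 24-month libraries, so no fold is given there. Herpud1 differed by -1.27 (SE 0.16) in the USI and -0.55 (SE 0.16) in the COL, and Ppp1r14d by 0.83 (SE 0.12) and 0.21 (SE 0.13). 2310016M24Rik differed by 0.08 (SE 0.09) in the USI and 0.06 (SE 0.09) in the COL beside 0.52 in the LSI. Its USI levels at 24 months were 33.5 and 33.8 CPM, close to the 31.1 to 32.8 CPM at 12 months.

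The 12 negative-limb genes, Arntl, Npas2 and Nfil3 had the same sign in each section. The median of the negative-limb list was -2.30 in the LSI, -2.06 in the USI and -1.46 in the COL, and Dbp differed by -4.75, -4.44 and -3.95. Immediate early genes had medians of -0.68, -0.77 and -0.24, and enterocyte genes of -0.999, -0.55 and -0.96. The respiratory chain list had medians of 0.28 in the LSI, 0.10 in the USI and -0.04 in the COL. For that list 14 of 24 members had an unadjusted p under 0.05 in the test of LSI against COL, against the background of 6.01%, and 0 of 24 in the test of LSI against USI.

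**Figure D5:**
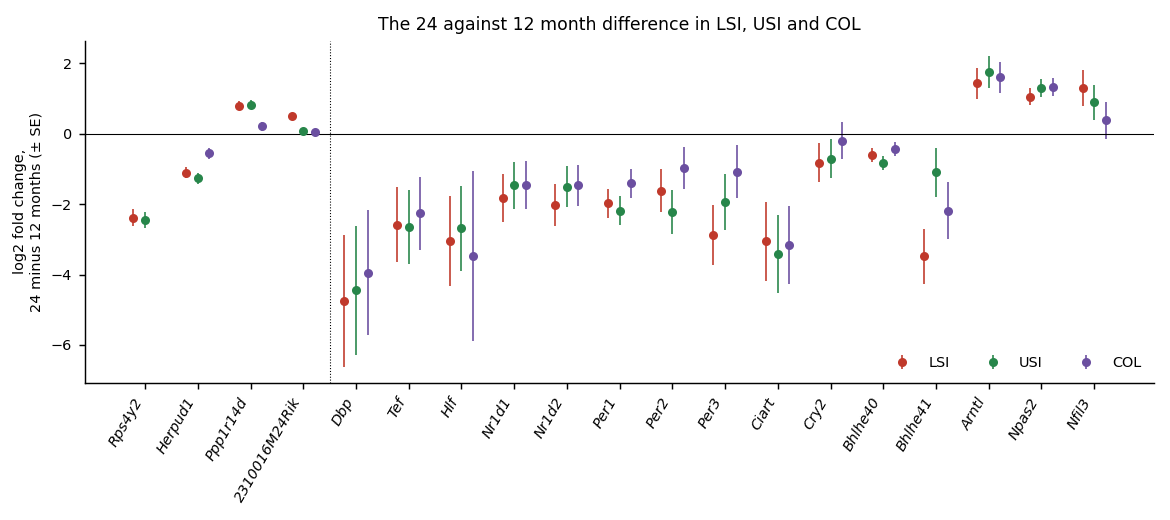
Log2 fold change of 24 minus 12 months (points, with bars for the SE of the fit) in LSI, USI and COL, for the 4 genes that differed in the LSI (left of the dotted line) and for 15 clock genes. The COL value of Rps4y2 is left out because both 24-month libraries had 0 counts. These clock genes share their sign across the sections, and 2310016M24Rik lies at 0.52 in the LSI, 0.08 in the USI and 0.06 in the COL.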

How the data were processed

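Per the file headers, the authors obtained the deposited counts per gene with featureCounts 2.0.0 and an Ensembl annotation of build mm9. Strand was ignored and mates were counted separately, so that overlapping antisense genes cannot be told apart. The methods name STAR, the submitters' processing notes TopHat2, HTSeq and Cuffdiff. From the counts, edgeR 4.0.16 (R 4.3.3) kept 17491 of 37681 genes by filterByExpr, scaled by TMM (factors 0.914 to 1.129), and fitted 1 quasi-likelihood model of 9 groups to the 24 libraries (15 residual degrees of freedom), with two-sided tests and Benjamini-Hochberg adjustment over all genes. Errors of folds are SEs of the fit. Steps were tested on simulated data.

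Of 769 genes in 45 lists, 763 were matched. Named are the genes called, the clock genes, up to 4 members of each list described by p, Lgr5, Dnmt1, Dnmt3a, Dnmt3b, Uhrf1 and Tet1 to Tet3, apart from a few genes not reported here. The members and lists were chosen with earlier results of these data known. Alternatives were other tests (DESeq2 1.42.0), scalings, filters, thresholds, library sets and covariates. List counts under 4 of these were added after seeing the data. Promoter sequences are RefSeq's (GRCm38.p6).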

Additional observations from a re-analysis of the deposited data

How the results depend on the processing

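The count of 4 genes (2 higher, 2 lower) was the same with RLE size factors and with a minimum of 1 CPM in 2 libraries. It was 73 (21 higher, 52 lower) with edgeR's likelihood ratio test, 169 (74 and 95) with DESeq2, 76 (11 and 65) with the 5 libraries alone, and 1 higher of 3 without the filter on low counts. The LSI libraries alone gave 1 gene (0 higher, 1 lower), not among the 4. A term for Y-linked counts gave 2 (0 higher), a further minimum absolute log2 fold change of 1.5 gave 1 (0 higher, 1 lower), and an adjusted p under 0.1 gave 16 (8 and 8). Leaving out each library in turn gave 1 to 181 genes (0 to 60 higher, 1 to 121 lower), 1 without 24-month B, 181 without 24-month A, 2 without 12-month A, 1 without 12-month B and 4 without 12-month C. For the difference between LSI and COL, the likelihood ratio test gave 9 and DESeq2 7 in place of 0. The cause of these shifts was not tested.

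The replicate letter as a block gave 16 genes (2 higher, 14 lower), the 4 among them. Deviations of same-lettered libraries correlated at 0.064 (A) and -0.00019 (B), so the letters were not taken as a pairing.

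Of the named genes' values under the alternatives, 1102 kept direction and call, 71 were called only under the alternative, 17 lost the call, and 12 changed sign, all near 0. Those were Dnmt1 with the block (-0.016) and the Y-linked term (-0.0198), Uhrf1 with the block (-0.033) and the Y-linked term (-0.107), and Dnmt3b with DESeq2 (-0.0065), RLE (-0.0068), the block (-0.087) and the Y-linked term (-0.081). Leaving out each library in turn gave -0.535 to 0.0054 for Lgr5, -0.012 to 0.063 for Dnmt3b and -0.031 to 0.099 for Uhrf1. With 2 against 3 libraries, a missed threshold does not show that levels were alike.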

Other observations

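Interferon-induced genes, an antiviral programme, and the antigen presentation genes of MHC class I were highest in 24-month library B. The summed interferon level was 894, 904 and 1232 CPM at 12 months, 1065 CPM in 24-month library A and 1553 CPM in library B. The immunoproteasome gene Psmb8 was at 49.6, 56.6 and 100 CPM at 12 months and at 82.5 and 174 CPM at 24 months, and the peptide transporter gene Tap1 was at 92.3, 75.9 and 154 CPM and at 126 and 286 CPM, so both overlapped. Of 35 interferon genes, 3 were higher and 3 lower without overlap (17.8% and 19.0% of all genes), and the median of 0.44 was 0.07 without library B. Of 23 measured myeloid and mast cell genes 3 were higher and 4 lower without overlap, near the shares of all genes (17.8% and 19.0%), with a median of 0.03. Among the members of that list with the smallest p were the mast cell protease genes Mcpt2, at 20.1 CPM in library B, 5.34 CPM in library A and at most 4.49 CPM at 12 months, and Mcpt1, at 51.5, 14.4 and at most 14.8 CPM.

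Glucocorticoid and fasting responsive genes were lower in 9 of 17 members without overlap and higher in 2, where 19.0% and 17.8% of all genes were. At an unadjusted p under 0.05 were 8 members, all lower (6.88% of all genes). Some members of the list are also on a list of clock output genes. Klf9 was at 38.9, 42.5 and 39.8 CPM at 12 months and at 33.2 and 26.1 CPM at 24 months (log2 fold change -0.45, adjusted p = 0.168), and the glucocorticoid receptor gene Nr3c1 differed by -0.30 (adjusted p = 0.25). The list holds Per1, which is also a clock gene. Its median log2 fold change over all members was -0.45, -0.48 without library A and -0.28 without library B.

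Among 17 measured imprinted genes, 7 were lower and 1 higher without overlap (19.0% and 17.8% of all genes). Igf2r, the receptor that clears IGF2, was at 123, 131 and 122 CPM at 12 months and at 104 and 97.2 CPM at 24 months (-0.32, adjusted p = 0.2). Igf2 was at 6.76, 19.2 and 7.91 CPM and at 3.54 and 3.16 CPM (-1.75, adjusted p = 0.262), and at 4 months it ranged from 2.17 to 24.8 CPM. Of 21 cholesterol synthesis genes 11 were higher and 1 lower without overlap (17.8% and 19.0% of all genes). The list was led by Nsdhl (0.39, adjusted p = 0.2) and Mvd (0.41, adjusted p = 0.308), and the median of 0.13 was 0.02 with the term for Y-linked counts and without library B.

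Car1, a carbonic anhydrase gene abundant in the colon, was at 23.5, 16.7 and 84.7 CPM in the 12-month LSI libraries, at 92.7 and 214 CPM in the 24-month libraries, and at 1.10, 2.17 and 3.30 CPM at 4 months (1.88, adjusted p = 0.244). Of 19 colon identity genes, 5 were higher and 4 lower without overlap, near the shares of all genes (17.8% and 19.0%).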
